A study of Mus musculus with 12 samples.

Results

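The genes of the SR and hnRNP splicing factors, together with the RNA helicase gene Dhx15, were followed across 12 libraries of mouse liver RNA. The rule took protein-coding rows of the deposited table whose symbol begins with Srsf or Hnrnp, or is Dhx15, and it was set with earlier results of these data known, Dhx15 among them. This gave 32 genes of the 54838 in the table, of which 11 were SR genes (Srsf1 to Srsf7, Srsf9 to Srsf12), 20 were hnRNP genes and 1 was Dhx15. The pseudogene rows Hnrnpa1l2-ps and Hnrnpa1l2-ps2 held 35 and 3 reads over all libraries and were not members. The libraries carried the labels CTL, DM and DMH, with 4 libraries each. The series title concerns an anti-diabetic action, in liver, of a red Chlamydomonas reinhardtii, a green alga, with much protoporphyrin IX. DM and DMH are not spelled out in the labels, and no label gives strain, age, dose or time or says which animals received the alga. Whether the libraries of a group stand for separate animals is not stated either, so each p-value measures the spread between samples, which may be technical.

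SR proteins carry RNA recognition motifs and a tail rich in arginine and serine; they bind exons and help the spliceosome to recognise them. The hnRNP proteins coat nascent transcripts and often act against the use of nearby splice sites, and both families also take part in mRNA export, stability and translation. SRPK and CLK kinases phosphorylate the tails of SR proteins, and DHX15 is a DEAH-box helicase that takes spent spliceosomes apart, work that proteins with a G-patch domain switch on. Many SR and hnRNP genes control their own mRNA through alternative exons or retained introns that send transcripts to nonsense-mediated decay. Changes in a total read count per gene therefore do not show which transcript, coding or not, was gained or lost.

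Library totals ran from 13430122 to 17038017 reads. The hepatocyte markers were abundant in all libraries, with sums over 6 genes of 27141 to 57166 reads scaled to a common library size (CPM). All 6 lay below 0 in DMH against CTL, with a median of -0.48. Retina markers were examined because the extraction text names retinas where the source label names liver. Of 9 such genes, Prph2, Crx and Rcvrn were at 0 in all 12 libraries, while the sum over the 9 ran from 13.9 to 54.2 CPM in CTL, 2.99 to 22.9 in DM and 10.1 to 25.5 in DMH; Gnat1 alone passed the filter on low counts, at 3.94 to 53.5 CPM. The mitochondrially encoded share of reads averaged 15.4% ± 7.36 for CTL, 24.2% ± 6.55 for DM and 30.1% ± 6.23 for DMH (SD, 4 libraries each). All 10 Kupffer cell markers had fold changes below 0 in DM and in DMH against CTL, and all 10 above 0 in DMH against DM. Of them 0 were called in DM and 1 in DMH against CTL, where 0.219% and 15.4% of all genes were. Their sums were 400 to 889 CPM in CTL, 76.7 to 207 in DM and 130 to 485 in DMH. Sums of 8 neutrophil markers were 8.24 to 340 CPM in CTL, 2.30 to 6.55 in DM and 1.09 to 15.4 in DMH. The 340 was CTL1 alone, and the other CTL libraries reached at most 29.1. For 6 B and plasma cell markers the sums were 150 to 238, 14.2 to 74.1 and 25.1 to 37.6 CPM. Of 7 sinusoidal endothelium markers, 7 lay below 0 in DM and 6 in DMH against CTL, with sums of 121 to 227, 93.3 to 149.6 and 112 to 184 CPM. In whole tissue, fewer cells of a type and less RNA per cell cannot be told apart. DMH3 stood apart from the other libraries in the genes described here: it was the highest of the 12 for 14 of 31 member genes and for 7 of 10 SR genes, against 15.6% of all genes tested. The member genes took 0.313% of its reads and 0.163% to 0.260% of those of the other 11. The nuclear RNAs Malat1 and Neat1 were also highest in DMH3, at 843 and 1450 CPM, against 113 to 582 and 188 to 999 elsewhere. The part of these shifts in the results below was not tested. As alternatives, the mitochondrial percentage was used as a covariate and each library was left out in turn. Because the mean percentage differed between the groups, the covariate fit cannot separate its part from that of the group.

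The member genes differed widely in level, with the highest values in Hnrnpab and Srsf2. Levels between genes are compared here as deposited FPKM (reads divided by a fixed gene length and by the library total), as means over 12 libraries. Hnrnpab, an A/B-type RNA-binding protein, averaged 26.6 ± 10.6 FPKM (SD, n = 12), and Srsf2, which binds exonic enhancers, 21.5 ± 8.03. Srsf6 followed at 20.8 ± 5.78 and Hnrnpu, a chromatin-associated scaffold protein, at 17.6 ± 4.65. These neighbours in the order did not differ beyond their spread over libraries. Hnrnpa2b1, Hnrnpul2, Srsf4, Srsf5 and Hnrnpa0 had means of 15.6 to 11.4 FPKM. The next 13 genes, from Srsf9 at 7.65 to Hnrnpc at 3.07, included the core silencer Hnrnpa1 at 5.63, the poly-C binding Hnrnpk at 4.29 and the SR founder gene Srsf1 at 3.38. Hnrnph2, Hnrnpul1, Srsf3, Hnrnpd, Hnrnpm and Srsf10 lay between 2.75 and 2.09, Dhx15 at 1.95, Hnrnpll at 0.919 and Hnrnpr at 0.442 ± 0.266. Srsf12 was at 0 reads in all 4 CTL libraries and had 10 reads in all, 5 of them in DMH4, so it did not pass the filter on low counts and 31 genes were tested. The fixed lengths behind the FPKM were 0.81 to 3.45 times the exonic length of the same genes in the GENCODE M21 annotation. Divided by that exonic length instead, the order of the highest genes was Srsf2, Hnrnpab, Srsf5 and Srsf6.

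**Figure D1:**
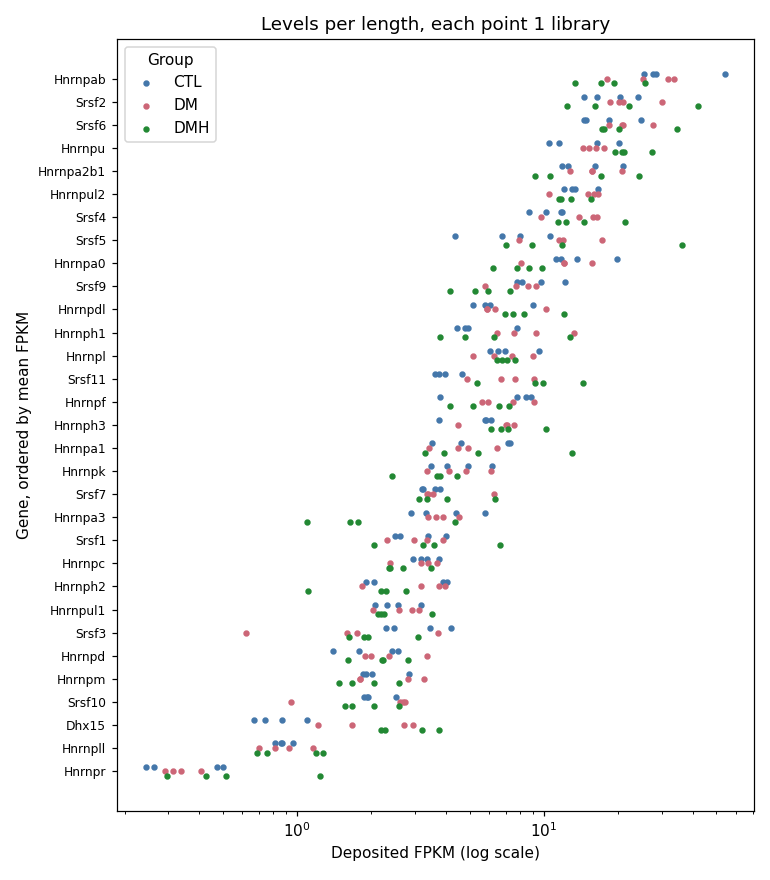
Deposited FPKM (x axis, log scale) of the 31 tested member genes (y axis, ordered by mean), with 1 point per library coloured by group. Hnrnpab and Srsf2 have the highest means at 26.6 and 21.5 FPKM and Hnrnpr the lowest at 0.442; Srsf12, at 0 in CTL, is not drawn.

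All member genes were compared across the groups in counts scaled to CPM with TMM factors, and changes are log2 fold changes with their standard error (SE). A gene was called where the adjusted p of edgeR's quasi-likelihood test, over all 14643 genes tested, was under 0.05. DMH against CTL gave most of the calls. There, 4 member genes rose (Dhx15, Srsf11, Hnrnpu and Hnrnph3) and 3 fell (Hnrnpa0, Srsf9 and Hnrnpab). This was 7 of 31 tested, or 22.6%, where 15.4% of all genes were called; for the higher genes the background was 7.25% and for the lower genes 8.15%. In DM against CTL only Dhx15 was called, 1 of 31 where 0.219% of all genes were called. Dhx15 was put in the rule by name with earlier results known, so its calls do not measure the 2 families. Of the 10 SR and 20 hnRNP genes tested, 0 were called in DM against CTL. In DMH against CTL the SR genes held 1 higher and 1 lower call, and the hnRNP genes 2 and 2. For DMH against DM the count was 0 of 31 against 0.0341%.

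**Figure D2:**
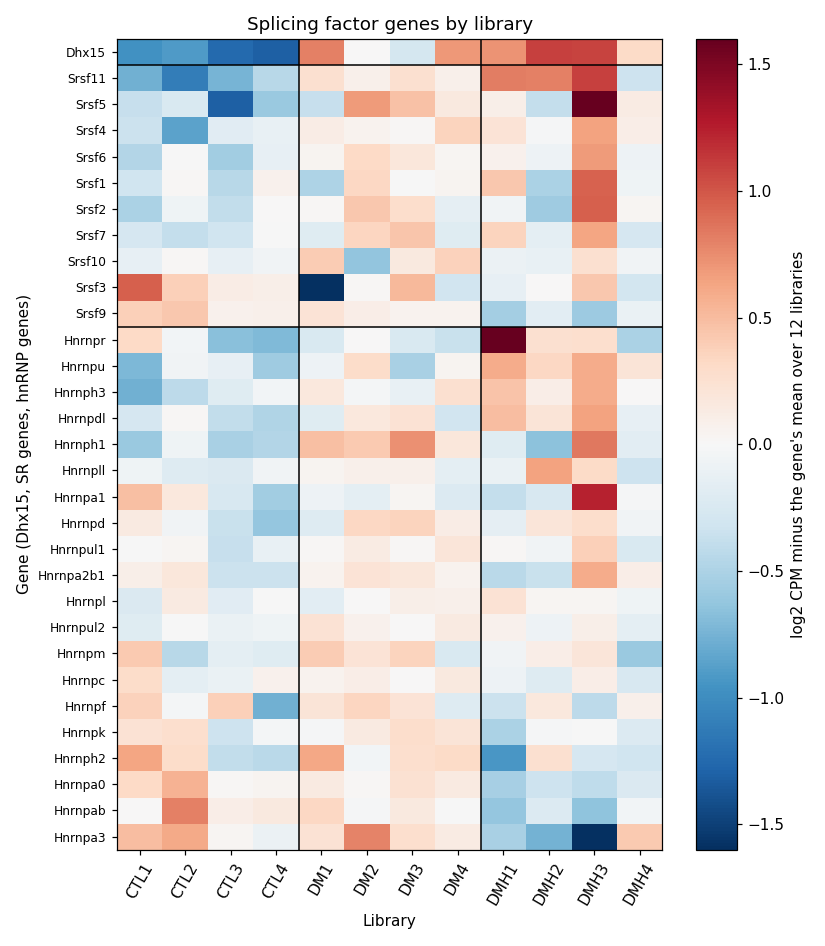
Log2 CPM of each tested member gene (rows, by family and then by fold change in DMH against CTL) in each library (columns), as the difference from the gene's mean over 12 libraries. Dhx15 is lowest in the 4 CTL libraries, and the DMH3 column is the highest for 14 of the 31 genes.

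The sequences upstream of 4 called genes are shown because these 4 kept their call in DMH against CTL when a trend with gene length, described further on, was removed. They are the 250 bases before the start of transcription in RefSeq (GRCm38.p6), 5′ to 3′ on the gene's strand. Capitals mark matches on either strand to GGGCGG (the GC box), to CCAAT (the CCAAT box), to CCGGAA (core of the ETS factor motif), to TGACGT (CRE core) and to TGCGCA (NRF1 motif core). No motif contains another. The Hnrnph3 start used lies 368 bases from the deposited start of the gene.
Dhx15, chr5:52190547-52190796, strand minus: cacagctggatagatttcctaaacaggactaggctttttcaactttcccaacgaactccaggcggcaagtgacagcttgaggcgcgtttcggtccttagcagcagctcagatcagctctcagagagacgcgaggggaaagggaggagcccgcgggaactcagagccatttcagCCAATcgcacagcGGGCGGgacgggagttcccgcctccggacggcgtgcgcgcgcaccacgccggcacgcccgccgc
Srsf11, chr3:158036607-158036856, strand minus: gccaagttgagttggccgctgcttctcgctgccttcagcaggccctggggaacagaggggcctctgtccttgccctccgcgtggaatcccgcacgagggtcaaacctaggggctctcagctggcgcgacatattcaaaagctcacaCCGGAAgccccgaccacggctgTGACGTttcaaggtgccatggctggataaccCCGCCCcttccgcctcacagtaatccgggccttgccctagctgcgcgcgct
Hnrnph3, chr10:63023850-63024099, strand minus: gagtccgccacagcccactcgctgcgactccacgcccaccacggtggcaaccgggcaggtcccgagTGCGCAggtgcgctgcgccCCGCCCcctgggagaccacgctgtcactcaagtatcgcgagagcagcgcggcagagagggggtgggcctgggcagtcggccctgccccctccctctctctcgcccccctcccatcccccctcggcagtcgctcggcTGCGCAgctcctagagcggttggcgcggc
Hnrnpa0, chr13:58128557-58128806, strand minus: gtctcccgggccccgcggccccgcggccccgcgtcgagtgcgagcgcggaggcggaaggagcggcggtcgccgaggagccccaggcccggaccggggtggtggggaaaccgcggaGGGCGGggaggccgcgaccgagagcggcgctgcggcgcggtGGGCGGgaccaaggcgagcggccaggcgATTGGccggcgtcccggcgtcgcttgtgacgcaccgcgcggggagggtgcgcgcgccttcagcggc
Over the full RefSeq windows, from 250 bases before to 50 after the start, 30 of the 32 member genes were matched. Their median GC content was 66.7%, against 52.7% over all 32851 windows, and their median number of CpG dinucleotides was 31.5 against 7. For each member gene the window nearest its deposited start was used. The 32851 were all windows listed, not limited to genes expressed in these libraries, so the sets compared are unlike. GGGCGG occurred in 24 of the 30 member windows (80.0%) and in 35.66% of all windows, and it was in the windows of all 7 called genes, higher and lower. CCGGAA was in 12 (40.0%, against 14.9%), CCAAT in 17 (56.7%, against 37.41%) and TGACGT in 8 (26.7%, against 7.51%). TGCGCA was in 6 (20%, against 7.76%) and the CTCGCGAG element in 3 (10%, against 0.92%). The TATAAA box was in 4 (13.3%, against 13.62%) and the E-box CACGTG in 4 (13.3%, against 7.15%). Several of these motifs are themselves rich in G and C, and a match describes these letters, not a bound factor.

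Dhx15 showed the largest fold change of the 31 tested member genes against CTL, in DM as in DMH. It lies on chromosome 5 (52150203 to 52190514, GRCm38, ENSMUSG00000029169). Its levels in CTL1 to CTL4 were 9.05, 9.45, 7.45 and 7.12 CPM. In DM1 to DM4 they were 30.9, 17.7, 14.6 and 28.6 CPM, and in DMH1 to DMH4 29.1, 37.8, 37.3 and 21.8 CPM. Every DM and every DMH library lay above every CTL library, while DM and DMH overlapped. Dhx15 rose by 1.47 ± 0.26 on the log2 scale in DM against CTL (2.77-fold, edgeR adjusted p = 0.0467) and by 1.93 ± 0.27 in DMH against CTL (3.81-fold, adjusted p = 0.00761). DMH against DM was 0.46 ± 0.26 with a 95% interval of -0.12 to 1.04 (adjusted p = 0.330). Over 22 alternative analyses, its adjusted p in DMH against CTL stayed under 0.05 in 21 and was 0.394 with the mitochondrial percentage as a covariate, where the fold change was 2.08. The call in DM against CTL held in 9 of 22, with adjusted p from 0.000131 to 0.211, the highest being with the mitochondrial covariate, and was lost without any 1 of CTL1, CTL2, CTL3, CTL4, DM1, DM2, DM4 or DMH2 (0.0610 to 0.131). Only 0.5% of the 25-base words of its transcripts occur in other genes.

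Among the SR genes, Srsf11 was the one that rose in DMH against CTL. It encodes an arginine- and serine-rich nuclear protein (ENSMUSG00000055436, chromosome 3, 158010473 to 158036639). CTL1 to CTL4 held 65.4, 51.6, 66.3 and 81.9 CPM, DM1 to DM4 133, 117, 132 and 117, and DMH1 to DMH4 195, 193, 236 and 88.5. DM and DMH libraries all lay above CTL; DMH4 was the lowest DMH library by far and fell below all 4 DM libraries. The change in DMH against CTL was 1.43 ± 0.26 (2.69-fold, edgeR adjusted p = 0.0118), and it kept its call in 21 of 22 alternatives, the exception being the mitochondrial covariate (1.05, adjusted p = 0.401). For DM against CTL the value was 0.91 ± 0.25 (adjusted p = 0.108, not called; 0.0360 without DMH4 and 0.0284 in DESeq2), and for DMH against DM 0.51 ± 0.25 (95% interval -0.06 to 1.09).

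Srsf9 was the SR gene that fell. It encodes an SR protein with a short arginine- and serine-rich tail (ENSMUSG00000029538, chromosome 5, 115327177 to 115333080). Its levels were 22.9, 23.7, 18.4 and 18.6 CPM in CTL1 to CTL4, 20.4, 19.0, 18.3 and 18.4 in DM1 to DM4 and 12.1, 15.7, 11.8 and 16.4 in DMH1 to DMH4. The DMH libraries all lay below both other groups. In DMH against CTL Srsf9 fell by 0.58 ± 0.16 on the log2 scale (1.49-fold lower, edgeR adjusted p = 0.0318), and in DMH against DM the value was -0.44 ± 0.16 (adjusted p = 0.161). Its call was lost with the length trend removed (-0.39, adjusted p = 0.0873) and without any 1 of CTL1, CTL2, DM1, DM2, DM3, DMH1 or DMH3 (0.0533 to 0.106). It held in 8 of 22 alternatives, with adjusted p from 0.0106 to 0.531, the highest being with the mitochondrial covariate (-0.34); it was also lost without a filter on low counts, in both limma fits, with only the groups compared and with the replicate block.

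The other 8 tested SR genes did not pass the test in any comparison in the reported analysis. In DMH against CTL, Srsf4 was called with RLE in place of TMM factors, with the strict filter, by DESeq2 and without DMH4. In these alternatives 15.5% to 21.3% of all genes were called. DESeq2 also called Srsf5. Srsf4, a large SR protein, stood at 46.3, 32.4, 51.7 and 54.0 CPM in CTL, 63.6, 61.2, 59.8 and 75.4 in DM and 68.5, 58.1, 91.4 and 63.2 in DMH, in replicate order. Both DM and DMH lay above CTL in all libraries; the values were 0.50 ± 0.19 in DM (edgeR adjusted p = 0.194) and 0.61 ± 0.19 in DMH (adjusted p = 0.0511). Of its exonic bases, 43.0% overlap Gm12992 on the other strand, which averaged 27.0 plain CPM beside 60.4 for Srsf4, so its value is uncertain.

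Srsf6, which promotes exon inclusion, had 108, 147, 101 and 135 CPM in CTL, 153, 185, 168 and 151 in DM and 156, 140.0, 239 and 139.6 in DMH. Its DM libraries were all above CTL, but the difference did not pass (0.42 ± 0.20, edgeR adjusted p = 0.280). Srsf2 held 84.6, 115, 91.2 and 120.2 CPM in CTL, 122, 162, 146 and 108 in DM and 115, 81.2, 233 and 123 in DMH, so its groups overlapped and DMH3 was its highest library. Its exons overlap Mettl23 and Mfsd11 on the other strand by 15.6% and 9.7%. Srsf5, named after its values were seen, reached 365 CPM in DMH3 and 44.4 to 175 in the other 11; its value in DMH against CTL was 1.22 ± 0.43 (edgeR adjusted p = 0.0734). Srsf3, also named for its values, was lowest in DM1 at 9.33 CPM against 26.4 to 63.1 elsewhere. Srsf1, Srsf2, Srsf4, Srsf5, Srsf6 and Srsf7 had values from 0.42 to 1.22 in DMH against CTL, Srsf10 had 0.08 and Srsf3 -0.40.

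Of the 20 hnRNP genes tested, 2 were called higher and 2 lower in DMH against CTL. These counts are close to the shares over all genes, 7.25% higher and 8.15% lower. Hnrnpu (ENSMUSG00000039630, chromosome 1, 178321108 to 178337797) was at 149, 236, 225 and 166 CPM in CTL1 to CTL4. Its levels were 233, 302, 171 and 252 in DM1 to DM4 and 369.7, 309.5, 372 and 282 in DMH1 to DMH4. DMH lay above CTL throughout and overlapped DM. Hnrnpu rose by 0.78 ± 0.21 on the log2 scale (1.72-fold, edgeR adjusted p = 0.0307); the call was lost with the length trend removed (0.56, adjusted p = 0.0905) and without any 1 of CTL1, CTL4, DMH1, DMH2 or DMH3 (0.0540 to 0.0663). It held in 11 of 22 alternatives, and was also lost in both limma fits, with only the groups compared, with the replicate block and with the mitochondrial covariate (0.45, adjusted p = 0.542). Cox20 shares 6.9% of its exonic bases on the other strand, at 28 plain CPM beside 253.

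Hnrnph3, of the group that binds runs of G, had 18.6, 23.6, 27.7 and 30.8 CPM in CTL, 35.4, 31.0, 29.0 and 37.9 in DM and 43.5, 34.1, 47.9 and 31.7 in DMH (ENSMUSG00000020069, chromosome 10, 63014664 to 63024217). The lowest DMH library lay just above the highest CTL library. It rose in DMH against CTL by 0.64 ± 0.19 (1.56-fold, edgeR adjusted p = 0.0410) and lost its call without any 1 of CTL1, CTL2, CTL3, DM4, DMH1, DMH2 or DMH3 (0.0533 to 0.0920). The call held in 9 of 22 alternatives; the other losses were without a filter on low counts, in both limma fits, with only the groups compared, with the replicate block and with the mitochondrial covariate (0.32, adjusted p = 0.608). Its relative Hnrnph1 held 55.1, 78.9, 58.2 and 60.1 CPM in CTL, 116, 111, 137 and 94.4 in DM and 72.6, 52.8, 149.6 and 74.1 in DMH. Here it was DM that lay above CTL in all libraries, at 0.86 ± 0.28 (edgeR adjusted p = 0.133; 0.0401 without DMH3), while DMH overlapped both groups.

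Hnrnpa0, a single-exon gene of the A/B type whose protein binds AU-rich mRNA elements (ENSMUSG00000007836, chromosome 13, 58125879 to 58128556), stood at 36.2, 42.9, 29.6 and 30.1 CPM in CTL. It had 32.3, 29.5, 34.6 and 32.3 in DM and 20.2, 23.1, 21.9 and 24.9 in DMH. The highest DMH library lay below the lowest of the other 8. Hnrnpa0 fell by 0.62 ± 0.15 on the log2 scale in DMH against CTL (1.54-fold lower, edgeR adjusted p = 0.0207). The value in DMH against DM was -0.51 ± 0.15, the smallest p of any member gene there (unadjusted p = 0.00469, adjusted p = 0.129). Its call in DMH against CTL was lost without any 1 of CTL1, CTL2, DMH1 or DMH3 (0.0500 to 0.0740). In all it held in 13 of 22 alternatives, and was also lost in both limma fits, with only the groups compared, with the replicate block and with the mitochondrial covariate (-0.31, adjusted p = 0.504).

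Hnrnpab (ENSMUSG00000020358, chromosome 11, 51600100 to 51606847) had 96.4, 168, 104 and 107 CPM in CTL, 121, 94.6, 107 and 95.9 in DM and 62.3, 82.3, 61.3 and 93.1 in DMH. DMH lay below both other groups in all libraries, by a small margin, and CTL2 was far above the rest of CTL. It fell by 0.67 ± 0.21 on the log2 scale (1.59-fold lower, edgeR adjusted p = 0.0480), the least stable of the 7 calls: it held in 2 of 22 alternatives, DESeq2 and the fit without DMH4, and the adjusted p was 0.165 without CTL2 and 0.604 with the mitochondrial covariate (-0.36). Phykpl overlaps 29.1% of its exonic bases on the other strand, at 13.3 plain CPM beside 102.

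Hnrnpa3, another A/B-type gene, held 32.2, 34.7, 23.4 and 21.4 CPM in CTL, 26.8, 39.7, 27.5 and 25.1 in DM and 15.9, 13.5, 7.60 and 30.6 in DMH. DMH1 to DMH3 were the 3 lowest libraries and DMH4 lay among the other groups; the value in DMH against DM was -0.82 ± 0.35 (edgeR adjusted p = 0.211). Annotated transcripts of other genes that do not overlap it hold 27.9% of its 25-base words. Hnrnpr, a relative of Syncrip, was at 15.7, 12.2, 7.92 and 7.76 CPM in CTL, 10.7, 12.6, 10.7 and 9.86 in DM and 47.4, 15.1, 15.3 and 8.87 in DMH. Its difference of 0.98 ± 0.44 in DMH against DM (edgeR adjusted p = 0.231) came with 1 high library, DMH1.

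**Figure D3:**
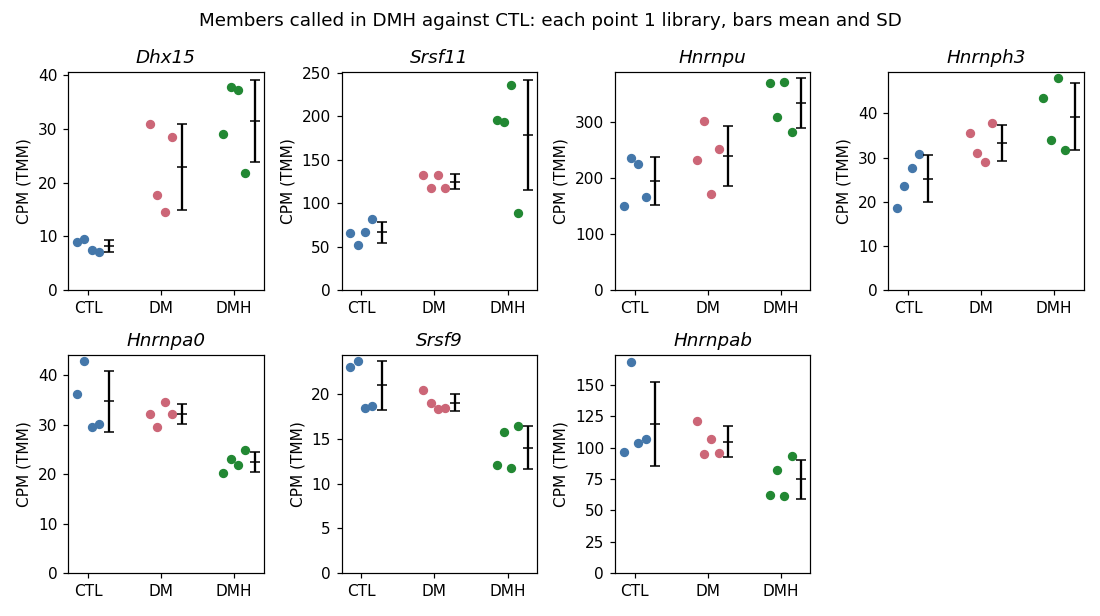
CPM with TMM factors (y axis, from 0) of the 7 member genes called in DMH against CTL, with 1 point per library and, beside each group, the mean and SD over 4 libraries. Dhx15 goes from 8.27 ± 1.15 CPM in CTL to 31.5 ± 7.58 in DMH, and Hnrnpa0 from 34.7 ± 6.25 to 22.5 ± 1.99.

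The 16 hnRNP genes outside these calls included the exon silencers Hnrnpa1 and Hnrnpa2b1, the U-tract binding Hnrnpc and the CA-repeat binding Hnrnpl. None passed the test in any comparison in the reported edgeR analysis. In DMH against CTL their values ran from -0.73 (Hnrnpa3) to 0.99 (Hnrnpr), and Hnrnpdl came nearest to a call (0.60 ± 0.20, edgeR adjusted p = 0.0584). Hnrnpdl was called there by DESeq2, with the strict filter on low counts and without DMH4 (21.2%, 21.3% and 19.8% of all genes called). Without DMH4, Hnrnpr and Hnrnpa3 were called as well. In DM against CTL, Hnrnph1 was called with only the 2 groups compared (2.61%) and without DMH3 (1.67%). Hnrnpf, Hnrnpa1, Hnrnpa3 and Hnrnph2 share 24.3% to 46.8% of their 25-base words with genes that do not overlap them, and Hnrnpm shares 14.7% of its exonic bases with March2 on its own strand, so their counts are uncertain.

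In the reported analysis, more member genes had values above 0 than below 0 in both DM and DMH against CTL. In DM against CTL 26 of 31 had a value above 0, with a median of 0.21, where 47.6% of all genes tested lay above 0 with a median of -0.03. The member median was 0.0762 and 0.0830 in limma fits on log2 FPKM with pseudocounts of 1 and 0.1, where that of all genes was -0.09 and -0.13, and 0.146 with the length trend removed. The SR genes had a median of 0.38 and the hnRNP genes 0.18. In 6 genes every DM library lay above every CTL library (background 7.32%), namely Dhx15, Srsf11, Hnrnph1, Srsf4, Srsf6 and Hnrnpul2, and in 0 was every DM library below (7.72%). An unadjusted p under 0.05 was reached by 4 of 31, against 18.8% of all genes.

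In DMH against CTL 21 of 31 had values above 0, where 49.4% of all genes tested did. These included 8 of 10 SR and 12 of 20 hnRNP genes. The median was 0.27 for all members, 0.44 for SR and 0.12 for hnRNP genes, against -0.01 for all genes tested. In the limma fits with pseudocounts of 1 and 0.1 the member median was 0.0115 and 0.0030. That of all genes was then -0.12 and -0.19. With the length trend removed the member median was 0.0761. The groups were apart upward in 5 genes (background 8.64%) and downward in 3 (10.9%), and 12 of 31 had an unadjusted p under 0.05, against 33.0%. Without DMH3 the member median dropped to 0.08 and the calls to 2, Dhx15 and Srsf11, where 6.51% of all genes were called. The calls also fell to these 2 genes without CTL1 (9.55% of all genes called) and without DMH1 (6.54%). Without DMH4 there were 11 calls, where 19.8% of all genes were called. With the mitochondrial percentage as a covariate 0 of the 31 genes, and 0 of all 14643, were called. The percentage follows the groups, so this loss of calls cannot be assigned to it or to the group.

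In DMH against DM 16 of 31 values lay above 0, with a median of 0.04 for all members, 0.09 for SR genes and -0.11 for hnRNP genes, against 0.03 for all genes. No member gene was called by edgeR, 6 had an unadjusted p under 0.05 (background 20.6%), and DESeq2 called 1, Hnrnpa0 (adjusted p = 0.0468). Every DMH library lay below every DM library in 3 genes, Hnrnpa0, Srsf9 and Hnrnpab (background 7.36%), and above in 0 (5.67%). The median was -0.15 without DMH3. DM against CTL and DMH against CTL share the CTL libraries, so their values for the same gene are not independent.

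**Figure D4:**
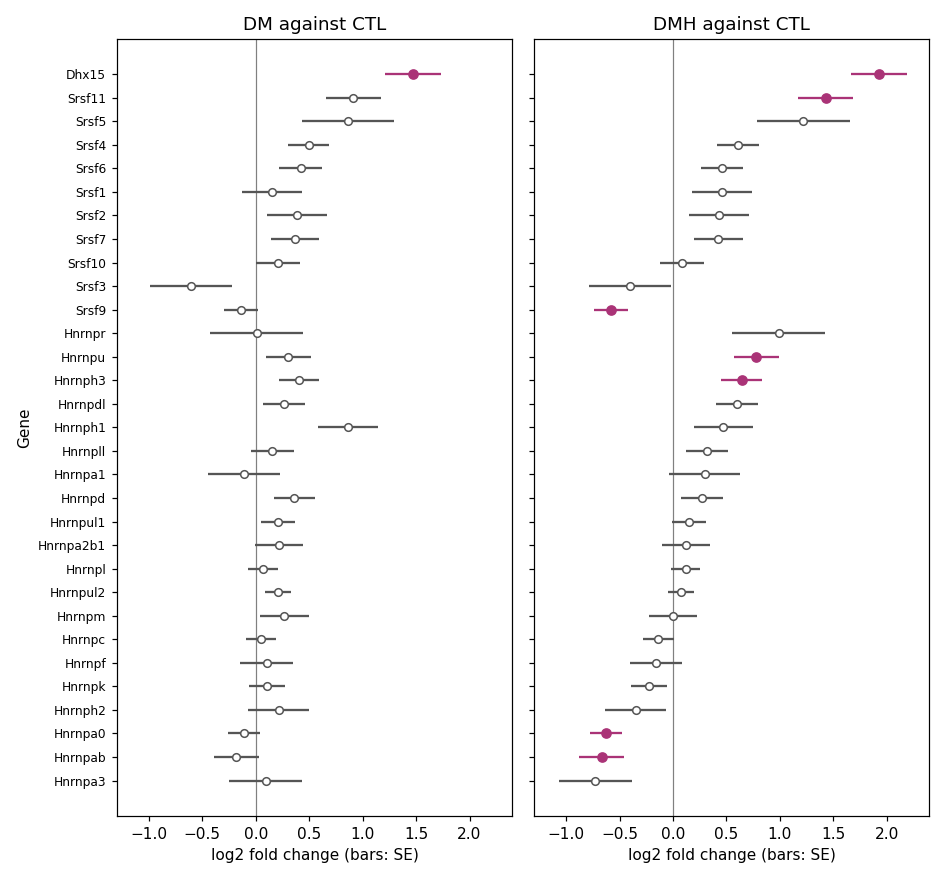
Log2 fold change (x axis, bars are SE) of the 31 tested member genes in DM against CTL (left) and DMH against CTL (right); filled points are called at an adjusted p under 0.05. Dhx15 is called in both, at 1.47 and 1.93, and the other 6 calls are in DMH against CTL only.

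The called genes differed in structure. The 4 that rose in DMH have 3151 to 11599 exonic bases in GENCODE M21 and the 3 that fell 1653 to 2782. All 4 higher genes have annotated transcripts with a retained intron, 2 to 11 of them, with 11 in Srsf11; the 3 lower genes have 0. Over the whole table, fold changes also moved with length. In DMH against CTL the median was -0.28 in the shortest of 4 equal-sized length bins (up to 2235 exonic bases) and 0.19 in the longest (from 6319). In the shortest bin 15.8% of genes were called lower and 3.63% higher, and in the longest 3.58% and 11.4%. Of the member genes, 13 were in the longest bin and 1, Srsf9, in the shortest.

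With each library's trend of log2 CPM against exonic length removed, an analysis added after the data were seen, 4 member genes stayed called in DMH against CTL. Dhx15 was at 1.75 (edgeR adjusted p = 0.0108), Srsf11 at 1.25 (0.0150), Hnrnph3 at 0.69 (0.0403) and Hnrnpa0 at -0.54 (0.0348). The median over the 31 genes was then 0.08, with 17 above 0. In the same analysis Dhx15 was at 1.37 in DM against CTL (adjusted p = 0.0538).

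**Figure D5:**
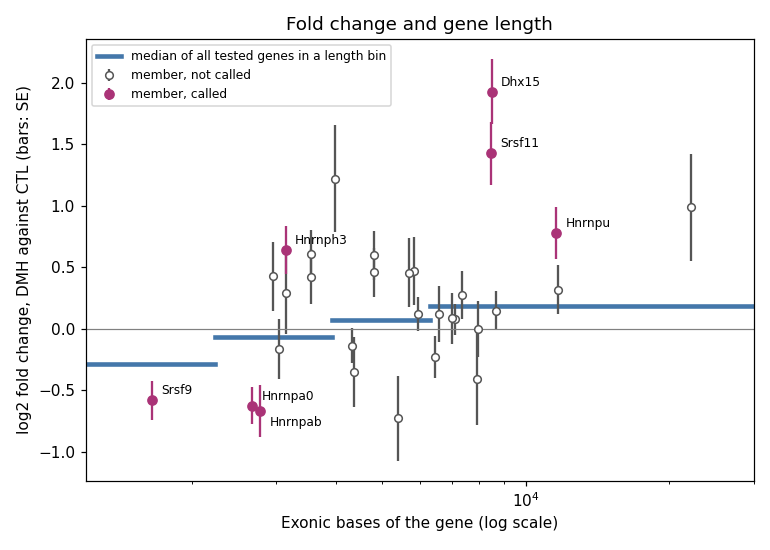
Log2 fold change in DMH against CTL (y axis, bars are SE) against the exonic length of the gene (x axis, log scale) for the 31 tested member genes, with horizontal lines at the median of all tested genes in each of 4 length bins. The medians go from -0.28 in the shortest bin to 0.19 in the longest; Srsf9, Hnrnpa0 and Hnrnpab are short, and Dhx15 and Srsf11 lie far above the line at their length.

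Annotated retained-intron transcripts exist for 23 of the 32 member genes (8 of 11 SR, 14 of 20 hnRNP), and 58.9% of tested protein-coding genes have one. In DMH against CTL the 23 tested member genes with such a transcript had a median of 0.43, 18 of them above 0, and the 8 without a median of -0.26, 3 above 0. The same medians over all protein-coding genes were 0.05 and -0.11. In DM against CTL the medians of the member genes were 0.26 and -0.0039. Transcripts marked for nonsense-mediated decay are annotated in 20 of the 32, among them 9 of the 11 SR genes. The deposited counts are per gene, so the share of such transcripts in these libraries was not measured.

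Genes that act on or with these factors were taken from 5 lists. No gene of any of the 5 lists was called in DM against CTL or DMH against DM by edgeR; DESeq2 called 0 to 2 a list in DM against CTL and 1 to 3 a list in DMH against DM, where it called 5.58% and 5.27% of all genes. An unadjusted p under 0.05 was reached by 2 to 5 genes a list in DM against CTL and by 4 to 9 in DMH against DM. The lists held 15 to 38 tested genes, and the shares over all genes were 18.8% and 20.6%. In DMH against CTL the kinases of SR proteins and SR-related factors had 6 of 20 tested genes higher and 0 lower (30% called, against 15.4% of all genes), with a median of 0.63. Among them were the kinases Clk1 (119 ± 13.2 to 231 ± 47.6 CPM, 0.95 ± 0.19, edgeR adjusted p = 0.0123), Clk2 (0.91 ± 0.20, 0.0155) and Clk4 (1.22 ± 0.19, 0.0108). Tra2a, a splicing activator with arginine- and serine-rich tails, rose by 0.98 ± 0.23, Acin1 by 0.89 ± 0.21 and Sfswap by 1.02 ± 0.19.

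Of the helicases and G-patch partners of DHX15, 4 of 26 rose and 1 fell, or 19.2% called, near the 15.4% of all genes. The 4 were the helicase gene Ddx42 (0.57 ± 0.17) and the G-patch genes Gpatch2 (0.87 ± 0.19), Gpatch8 (1.14 ± 0.34) and Sugp1 (0.54 ± 0.16); Gpatch4 fell by 0.72 ± 0.18. The core spliceosome had 0 higher and 4 lower of 38, with a median of -0.20. These 4 are a smaller share of the list than the 15.4% called among all genes. The count was 0 higher and 1 lower without a filter on low counts, where 5.39% of all genes were called. In DESeq2 it was 2 higher and 4 lower, where 21.2% of all genes were called. The 4 were the Sm protein genes Snrpb (-1.29 ± 0.28), Snrpd1 (-0.52 ± 0.16) and Snrpf (-0.62 ± 0.18) and the SF3B subunit gene Sf3b5 (-0.69 ± 0.18). Snrpa1 (0.55, edgeR adjusted p = 0.0617) and Xab2 (0.46, 0.0635), named after their values were seen, and Snrpd3 (-0.50, 0.0752) missed the threshold.

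Among other splicing regulators 4 of 29 rose, namely Rbm39 (0.84 ± 0.21), Rbm25 (1.09 ± 0.21), Tia1 (1.97 ± 0.49) and Ewsr1 (0.63 ± 0.16), and 2 fell, Khdrbs1 (-0.61 ± 0.18) and Raly (-0.56 ± 0.13). This was 20.7% called, beside 15.4% of all genes. DESeq2 called 7 higher and 4 lower, where it called 21.2% of all genes. In the nonsense-mediated decay list Upf3b rose by 1.30 ± 0.22, while Upf3a (-0.57 ± 0.18) and the exon junction genes Eif4a3 (-0.58 ± 0.14) and Rbm8a (-0.69 ± 0.16) fell, of 15 tested (26.7% called). With the length trend removed, the calls were 6 for the SR kinase list (5 higher, 1 lower), 3 for the helicase list and 2 for the core spliceosome. These lists held 20, 26 and 38 tested genes in the reported analysis, and 12.3% of all genes were called with the trend removed.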

How the data were processed

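RNA from 12 mouse liver libraries was sequenced. Per the series' design text, read quality was inspected in FastQC 0.11.8, poor reads were removed by Trimmomatic 0.36, HISAT2 2.1.0 placed the rest on GRCm38 and StringTie gave gene counts. For every gene and library the authors deposited both a raw count, in whole reads, and an FPKM value; no StringTie version, gene annotation or strandedness is stated in the labels. The deposited FPKM equals the count divided by a fixed gene length and the plain library total, to within 0.000378% in the 31 tested genes.

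Tests used edgeR 4.0.16 in R 4.3.3 (quasi-likelihood, robust, TMM) on the counts of all 12 libraries in 1 model, with 9 residual degrees of freedom. The filter (filterByExpr, minimum count 10, minimum total 15) left 14643 genes, over which p-values were adjusted by Benjamini-Hochberg. Log2 CPM values, as used for the length trend and the check of replicate numbers, took a prior count of 2. The reported fold changes came from the edgeR fit and did not use it. DESeq2 1.42.0, limma 3.58.1 on log2 FPKM (pseudocounts 1 and 0.1), other filters, covariates and left-out libraries were alternatives. Structure came from GENCODE M21 and promoters from RefSeq.

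No 2 libraries of a group were copies: over 18 pairs, chi-square divided by its degrees of freedom was 39.5 to 432. The member genes and gene lists were chosen with earlier results of these data known. Values in every library are given for genes called in any comparison, the 6 with the smallest p in each and those with the highest or lowest FPKM; from the lists, called genes and the 2 with the smallest p are named. The number of libraries, 4 in each group, limits the precision.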

Additional observations from a re-analysis of the deposited data

Results flagged for a closer look

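Among 93 groups of 4 libraries (31 genes in 3 groups), 1 held a library far from the other 3 by Dixon's criterion. Srsf10, an SR protein that can repress splicing when dephosphorylated, stood at 25.1 CPM in DMH3 against 19.4 to 20.2 in the other DMH libraries. The gap took 0.841 of the group's range, above the critical value for 4 libraries. Chance alone gives such a library in about 1 in 20 groups.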

How the results depend on the processing

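The number of member genes called in DM against CTL, 1 in the reported analysis, was 2 with DESeq2 (5.58% of all genes called) and 3 with only the 2 groups compared (2.61%). It was 0 with limma at either pseudocount (0.293% and 0.269%) and with the mitochondrial covariate (0.0205%). The replicate block (0.00683%) and the length trend removed (0.226%) also gave 0. Leaving out 1 library gave 0 to 2, where 0.0467% to 1.67% of all genes were called. For DMH against CTL, 7 as reported, it was 10 with DESeq2 (21.2% of all genes called), 8 with a strict filter on low counts (21.3%) and 4 without a filter (5.39%). It was 2 with limma at either pseudocount (9.24% and 7.98%), 2 with only the 2 groups compared (4.43%) and 2 with the replicate block (6.84%). With the mitochondrial covariate it was 0 (0%), and with the length trend removed 4 (12.3%). Under a fold of at least 2 with unadjusted p under 0.05 it was 3 (12.8%). Leaving out 1 library gave 2 to 11, where 4.19% to 19.8% of all genes were called. In DMH against DM DESeq2 gave 1 (5.27%), and leaving out any 1 library gave 0 (0.00665% to 1.04%). The member median in DMH against CTL, 0.27, was 0.0115 and 0.0030 with limma at pseudocounts of 1 and 0.1, where the median of all genes was -0.12 and -0.19, and 0.0761 with the length trend removed; leaving out 1 library gave 0.0812 to 0.377. In DMH against DM leaving out 1 library gave medians of -0.154 to 0.117. The cause of these shifts was not tested. The labels do not say whether replicate numbers pair the libraries. The correlation of same-numbered libraries' deviations ran from -0.129 to 0.112 over 12 pairs, 1 above 0.1. Only 2 of 12 libraries correlated best with their own number. With 4 libraries in each group, these values cannot settle whether same-numbered libraries share an animal, litter or day. Over the named genes, 328 of the alternative values kept their side of the threshold, 82 lost and 6 gained a call, and none reversed. The 328 include results that were not called as reported and stayed so. Of 22 alternatives, the Dhx15 call in DM against CTL held in 9. In DMH against CTL, Dhx15 and Srsf11 held in 21 each, Hnrnpa0 in 13 and Hnrnpu in 11. Hnrnph3 held there in 9, Srsf9 in 8 and Hnrnpab in 2.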
